A study of Akebia trifoliata with 9 samples.

Results

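The 100 steadiest transcripts in leaves of Akebia trifoliata, a woody climbing vine, are described here as candidate reference transcripts. They were chosen by their measured values. Of 82321 assembled identifiers, 6259 had a mean of 20 to 300 TPM over all 9 libraries, and the 100 with the smallest SD of log2(TPM + 1) over those libraries were taken, 1.60% of the 6259. TPM, the unit of all levels given, states a transcript's length-corrected share of its library. The libraries came from leaves after 28 days of treatment, 3 for each of 3 groups. Control plants received distilled water alone, on the leaves and at the roots. The CUR0 group had its leaves sprayed with acid rain simulated at pH 2.0 and was given 0 µmol/L of curcumin, the yellow polyphenol of turmeric. CUR50 plants were sprayed with the same acid rain and received curcumin at 50 µmol/L through the roots. No allele, strain or plant age is given in the labels, and the plants shared 1 nursery source. The labels name the libraries biological replicates, but the stated numbers of plants and of replicates per treatment differ. Whether each library is 1 plant is therefore unclear, and how far the spread between libraries is biological or technical is unknown.

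A reference transcript is one whose level is taken as constant, so that other transcripts can be expressed relative to it, as in quantitative PCR. Plant studies have mostly used genes of basic cell functions for this purpose, such as actin, which builds the cytoskeleton, ubiquitin, which tags proteins for degradation, and elongation factor 1-alpha, which brings transfer RNA to the ribosome. Leaf RNA is dominated by a small number of transcripts, many of them for photosynthesis, and a share such as TPM depends on them as well as on the transcript itself. The identifiers of the steadiest transcripts could not be paired with any gene name, so which of these functions they serve is not stated, and the leaf label could not be checked against marker genes.

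The TPM columns each summed to between 999997 and 1000003, and the read depth behind them is unknown. The 10 most abundant transcripts together held 23.2% to 24.9% of the TPM total of Control libraries, 24.8% to 28.8% in CUR0 and 18.5% to 26.0% in CUR50. All 100 steadiest transcripts were above the filter used for testing, at least 1 TPM in at least 3 libraries. In bulk leaf RNA, fewer cells of a type and less RNA per cell cannot be told apart.

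On the deposited scale the 100 transcripts varied little. The SD of log2(TPM + 1) over the 9 libraries ran from 0.033 to 0.088 with a median of 0.078, and the median of all 6259 transcripts in the window was 0.25. The coefficient of variation of TPM ran from 2.28% to 6.33%. Between its highest and its lowest library the median member differed 1.18-fold and the widest 1.23-fold, against 1.70-fold for the median transcript of the window. These values made the choice and are given as a description. The last 3 inside the limit, TRINITY_DN2292_c0_g1, TRINITY_DN9431_c0_g1 and TRINITY_DN102_c0_g3, had SDs of 0.0876, 0.0882 and 0.0882. The first 3 outside it, TRINITY_DN6090_c0_g1, TRINITY_DN26551_c0_g1 and TRINITY_DN10690_c0_g1, had SDs of 0.0884, 0.0885 and 0.0886. The limit thus fell in a continuous run of values, with no gap between members and the rest.

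**Figure D1:**
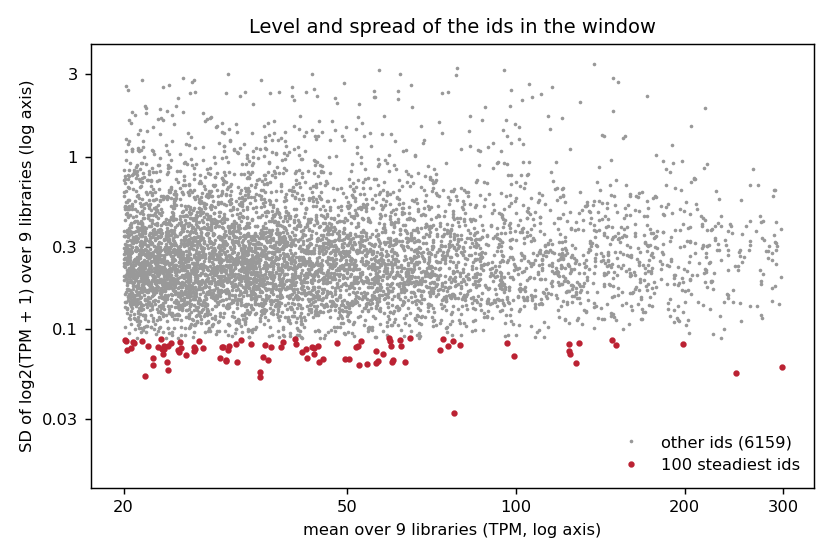
Each point is 1 of the 6259 transcripts with a mean of 20 to 300 TPM. The horizontal axis gives the mean TPM and the vertical axis the SD of log2(TPM + 1) over 9 libraries, both on log axes, and the 100 members are the larger red points along the lower edge, at SDs up to 0.088.

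The members were spread over the whole window. Their mean levels ran from 20.1 TPM, in TRINITY_DN12435_c0_g5, to 298 TPM, in TRINITY_DN4396_c1_g1, with a median of 39.4 TPM against 38.4 TPM for the window. Of the transcripts with a mean of 20 to 30 TPM, 33 of 2073 (1.59%) were members. The shares were 1.54% (30 of 1942) from 30 to 50 TPM, 1.82% (27 of 1481) from 50 to 100 TPM, 1.31% (8 of 609) from 100 to 200 TPM and 1.30% (2 of 154) from 200 to 300 TPM. Spearman's rho between SD and mean level was -0.03 across the 100 members and 0.00 across the 6259 transcripts, which share the same 9 libraries and are not independent.

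The assembly identifiers, which the choice did not use, looked like those of the window. No 2 members shared an assembly cluster or a larger assembly component, so the 100 are separate sequences of the assembly. The cluster of 62 members (62 of 100) held at least 1 other identifier, against 59.1% in the window, and such a transcript may share reads with those identifiers. The largest cluster, that of TRINITY_DN12435_c0_g5, held 6 identifiers.

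TRINITY_DN4921_c0_g1 had the smallest SD, 0.033. It stood at 79.8, 77.8 and 78.4 TPM in Control, at 74.6, 77.2 and 80.4 TPM in CUR0 and at 76.4, 77.0 and 76.7 TPM in CUR50. Its lowest and highest values were both in CUR0 libraries, the other groups lay within them, and its cluster holds no other identifier. TRINITY_DN3925_c0_g2 came next, with an SD of 0.053. It stood at 35.8, 34.4 and 35.3 TPM in Control, at 33.9, 36.4 and 36.6 TPM in CUR0 and at 34.7, 32.5 and 34.8 TPM in CUR50, and the 3 groups overlapped.

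TRINITY_DN5567_c0_g1 stood at 21.4, 21.6 and 21.3 TPM in Control and at 22.2, 22.3 and 22.1 TPM in CUR0. All 3 CUR0 values lay above the Control values. The CUR50 libraries, at 20.3, 22.3 and 23.2 TPM, held both its lowest and its highest value. TRINITY_DN4023_c1_g1, at a mean of 247 TPM, stood at 248, 244 and 241 TPM in Control and at 258, 249 and 256 TPM in CUR0. In CUR50 it stood at 226, 247 and 252 TPM, and replicate 1 was the lowest of the 9 libraries.

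TRINITY_DN11378_c0_g2 stood at 35.8, 34.9 and 33.6 TPM in Control, at 35.5, 33.1 and 33.9 TPM in CUR0 and at 36.8, 34.2 and 37.1 TPM in CUR50, with overlap between all groups. The means of the other members among the 10 steadiest were 24.0 TPM in TRINITY_DN7290_c0_g1, 298 TPM in TRINITY_DN4396_c1_g1, 22.6 TPM in TRINITY_DN782_c0_g1, 52.6 TPM in TRINITY_DN1911_c0_g1 and 54.3 TPM in TRINITY_DN5556_c0_g1. Their SDs ran from 0.057 to 0.062. TRINITY_DN4396_c1_g1 had the highest mean level of the members and ranged from 274 TPM in CUR50 replicate 1 to 315 TPM in CUR0 replicate 1.

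**Figure D2:**
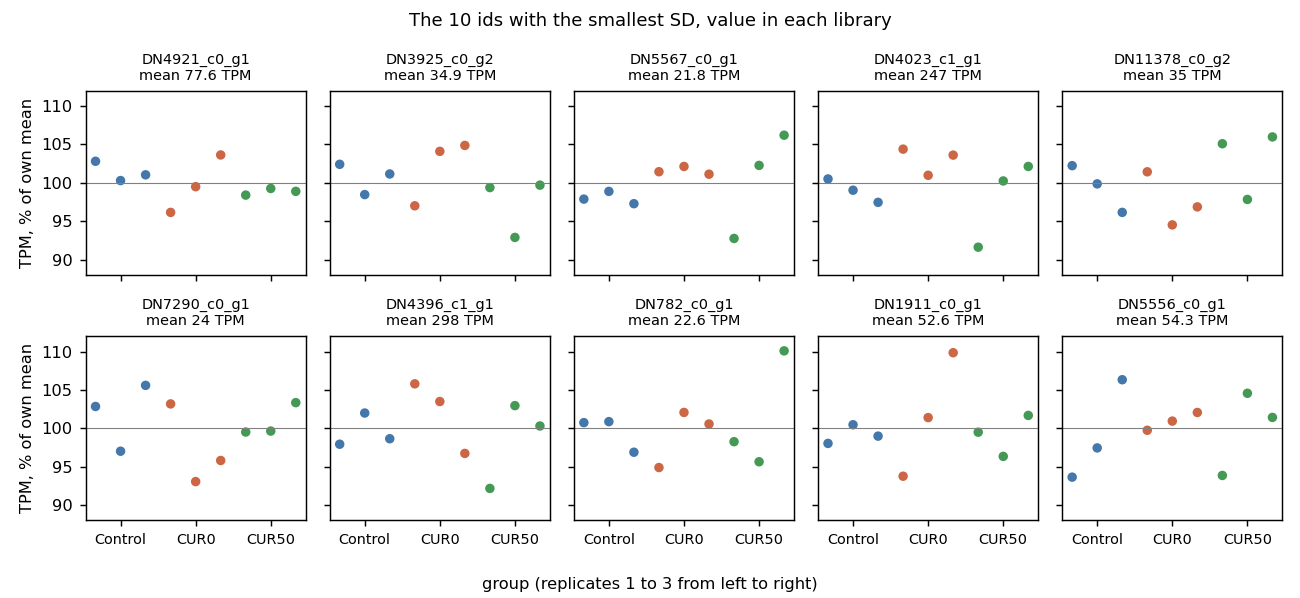
Each panel is 1 of the 10 transcripts with the smallest SD and gives TPM in each library as a percentage of the transcript's own mean, with the mean in TPM above it. Points are libraries in the order Control, CUR0, CUR50, and TRINITY_DN4921_c0_g1, from 74.6 to 80.4 TPM, has the narrowest spread.

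A ratio of 2 transcripts within a library is free of any scaling of that library. Among the 4950 pairs of members the SD of the log2 ratio over the 9 libraries had a median of 0.10 and ran from 0.032 to 0.16. The pair with the smallest value was TRINITY_DN2635_c1_g3 with TRINITY_DN1234_c0_g1, singled out after the values were seen. Averaged over the other 99 members, the SD was smallest for TRINITY_DN4921_c0_g1 (0.082), TRINITY_DN4023_c1_g1 (0.083), TRINITY_DN5567_c0_g1 (0.083), TRINITY_DN7290_c0_g1 (0.086) and TRINITY_DN260_c0_g1 (0.087). Against the same 100 members the median transcript of the window had a mean SD of 0.25. Members were chosen for values that move little, so small ratios among them follow from the choice.

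The shift of a library on the members was measured as the median difference between each member's log2(TPM + 1) in that library and the member's own mean. Control had values of 0.0030, -0.0015 and 0.0045 for replicates 1, 2 and 3. In CUR0 it was 0.029, -0.028 and -0.00056, and in CUR50 it was -0.029, 0.0030 and 0.021. The Control libraries lay closest together, while CUR0 and CUR50 each had a library at either side of 0. As means over libraries the groups stood at 0.0020 ± 0.0031 (Control), 0.00042 ± 0.029 (CUR0) and -0.0018 ± 0.025 (CUR50) (SD, n = 3). The members were chosen for a small SD over these same libraries, so group means near 0 follow from the choice. The summed TPM of the members was 0.536% ± 0.002 of the Control total, 0.537% ± 0.009 for CUR0 libraries and 0.534% ± 0.013 for CUR50 libraries (SD, n = 3).

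The window as a whole moved more. The median shift of its 6259 transcripts was 0.0033, 0.024 and 0.017 in Control, 0.0085, -0.16 and -0.095 in CUR0 and -0.039, 0.10 and 0.17 in CUR50. In CUR0 replicates 2 and 3 only 29.0% and 31.9% of these transcripts stood above their own mean, and in CUR50 replicates 2 and 3 the shares were 67.5% and 70.1%. The members were chosen for small shifts in these same libraries, so nothing is read from the difference. The most abundant transcript, TRINITY_DN54103_c1_g1, accounted for 7.91%, 8.87% and 9.05% of the TPM total for Control replicates 1 to 3, for 10.9%, 13.7% and 12.1% with CUR0 and for 10.03%, 6.59% and 5.89% with CUR50. It was highest in CUR0 replicate 2, where the window was lowest, and lowest in CUR50 replicate 3, where the window was highest. The members' shifts without the 10 most abundant transcripts are given with the other scalings.

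**Figure D3:**
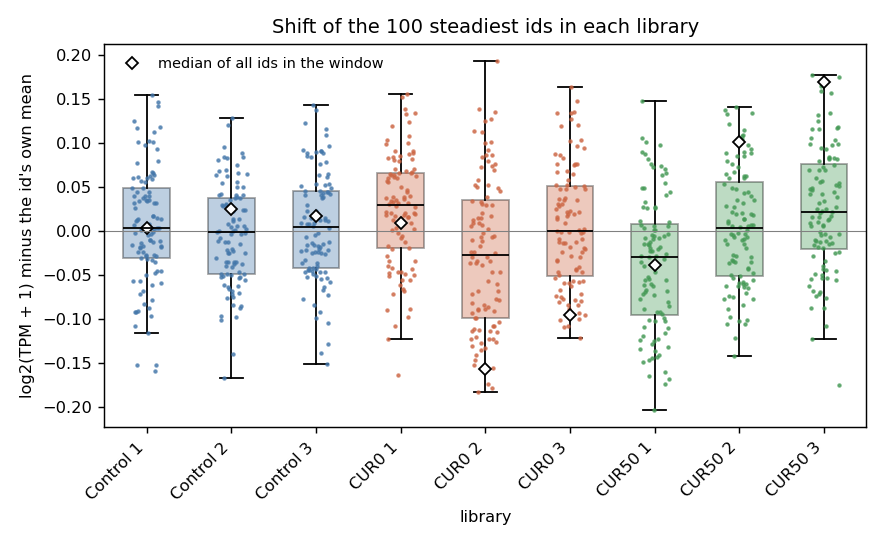
For each library the box gives the median and quartiles over the 100 members of log2(TPM + 1) minus the member's own mean, whiskers reach the farthest point within 1.5 box lengths, and points are members. Diamonds are the median of all 6259 transcripts of the window, which reach -0.16 in CUR0 replicate 2 and 0.17 in CUR50 replicate 3, where the members' medians are -0.028 and 0.021.

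The libraries differed in how often they held a member's farthest value, as they did in the window. The value farthest from a member's own mean was in CUR50 replicate 1 for 24 members, in CUR0 replicate 2 for 21 and in CUR50 replicate 3 for 13, and in each of the other 6 libraries for 3 to 9. In the window these 3 libraries were the farthest for 21.1%, 18.0% and 28.9% of transcripts. The members were thus near the window in the first 2 and below it in CUR50 replicate 3. CUR50 replicate 1 held the lowest value of 26 members and CUR0 replicate 2 that of 29, whereas CUR50 replicate 3 held the highest of 19. The window's shares of lowest and highest values were not computed, so nothing is read from these counts. The median SD within a group of the members was 0.046 for Control, 0.069 for CUR0 and 0.066 for CUR50 libraries, and that of the window 0.098, 0.13 and 0.20. Differences between group means made up a median of 27.5% of a member's variance over the 9 libraries, against 60.8% in the window. The members were chosen for a small SD over these same libraries, so nothing is read from either contrast with the window.

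On the deposited scale none of the 100 members passed an adjusted p of 0.05 in any of the 3 comparisons (limma with an intensity trend on all 31754 tested genes, Benjamini-Hochberg adjustment). For CUR0 against Control 8.26% of all tested genes and 12.3% of the window were called. For CUR50 against CUR0 the shares were 4.77% and 10.7%, and for CUR50 against Control 12.6% and 21.1%. The lowest adjusted p among the members was 0.167, 0.185 and 0.159 in the 3 comparisons, and 1, 2 and 2 members had an unadjusted limma p below 0.05. The shares of the window and of all tested genes below that unadjusted p were not computed, so nothing is read from these counts. On 2 other scales 2 and 7 members were called in CUR50 against CUR0. The rule used these values, so the absence of calls is a description and not evidence that the members are unaffected. The median difference over the members was 0.00055 for CUR0 minus Control, -0.0055 for CUR50 minus CUR0 and -0.0076 for CUR50 minus Control, on the log2(TPM + 1) scale. Without CUR50 replicate 1 the last 2 medians changed sign, to 0.024 and 0.017. In the window the medians were -0.086, 0.17 and 0.058.

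Some members had groups that did not overlap although their SD was small. CUR0 and Control values did not overlap in 16 members, against 48.5% of the window. CUR50 and CUR0 values did not overlap in 15, against 39.1%, and CUR50 and Control values in 18, against 45.6%. The choice by SD lowers these counts, and nothing further is read from them.

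The member that stood highest for CUR0 minus Control was TRINITY_DN22104_c0_g1. It stood at 68.2, 72.2 and 72.7 TPM in Control, at 79.4, 78.3 and 82.1 TPM in CUR0 and at 70.9, 72.3 and 71.2 TPM in CUR50. All 3 CUR0 values lay above the other 6 libraries, and group differences made up 87.4% of its variance. The difference was 0.17 ± 0.066 (SE) in log2(TPM + 1) for CUR0 minus Control, with a limma adjusted p of 0.167. TRINITY_DN4436_c0_g1 was next, at 21.3, 21.0 and 20.5 TPM in Control, 23.6, 24.4 and 22.6 TPM in CUR0 and 22.2, 21.0 and 22.4 TPM in CUR50.

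At the low end of CUR0 minus Control, TRINITY_DN2072_c0_g2 stood at 25.6, 24.2 and 23.8 TPM in Control, 22.7, 21.4 and 22.4 TPM in CUR0 and 23.5, 23.9 and 24.3 TPM in CUR50. Its CUR0 values lay below all other libraries. TRINITY_DN3763_c0_g4 stood at 48.1, 46.9 and 45.9 TPM in Control, at 43.3, 40.1 and 45.03 TPM in CUR0 and at 43.7, 42.0 and 44.3 TPM in CUR50, so both treated groups lay below Control.

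For CUR50 minus CUR0 the lowest members were TRINITY_DN10549_c0_g1, with group means of 66.2 ± 1.8 TPM in CUR0 and 58.8 ± 2.4 TPM in CUR50 (SD, n = 3), and TRINITY_DN22104_c0_g1. The highest were TRINITY_DN9042_c0_g2, with 34.0 ± 2.2 and 37.8 ± 0.48 TPM, and TRINITY_DN12487_c0_g1, with 35.1 ± 0.95 and 38.9 ± 1.9 TPM. The CUR0 and CUR50 values of these members did not overlap, and none of the differences passed the test.

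The choice was then repeated on 8 libraries at a time, and the 100 transcripts chosen were read in the library left out, which the choice had not used. Between 53 and 86 of each new 100 were also among the original members. In the library left out the median shift of the chosen 100 from their mean in the other 8 was -0.017, -0.014 and 0.016 for Control replicates 1 to 3 and 0.042, -0.12 and -0.0066 for CUR0. For CUR50 replicates 1 to 3 it was -0.16, 0.00029 and 0.12. By this median, in which opposite moves cancel, freshly chosen transcripts moved most in CUR50 replicate 1, CUR50 replicate 3 and CUR0 replicate 2. The median absolute shift was also largest in these libraries, and it was smallest in Control replicates 2 and 3. In Control replicate 1 it was 0.0845, above CUR0 replicate 1 (0.0733), CUR0 replicate 3 (0.0786) and CUR50 replicate 2 (0.0839).

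Steadiness in 8 libraries carried over only in part. The median SD of the chosen transcripts was between 0.067 and 0.078 in the 8 libraries. Their median absolute shift in the library left out, which is a different measure from an SD, was between 0.059, in Control replicate 2, and 0.18, in CUR50 replicate 1. The SD of these shifts across the chosen transcripts ran from 0.089 to 0.20, in the same libraries. For all transcripts of the window the median absolute shift was between 0.12 and 0.29, and in each of the 9 libraries it was larger than that of the chosen 100. It was 0.22 in CUR50 replicate 1, where the chosen 100 came closest to it. In that library 15 of the 100 stood above their mean in the other 8, and 24 lay within 0.1 on the log2 scale, against 26.0% of the window. In Control replicate 2, 79 of the 100 lay within 0.1, against 34.1% of the window. The median shifts of the chosen 100 and of the window had the same sign and were both large in CUR0 replicate 2, at -0.12 and -0.18, and in CUR50 replicate 3, at 0.12 and 0.18. In CUR50 replicate 1 the chosen 100 moved further, at -0.16 and -0.054, and in CUR0 replicate 3, at -0.0066 and -0.11, and CUR50 replicate 2, at 0.00029 and 0.11, they moved less than the window.

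**Figure D4:**
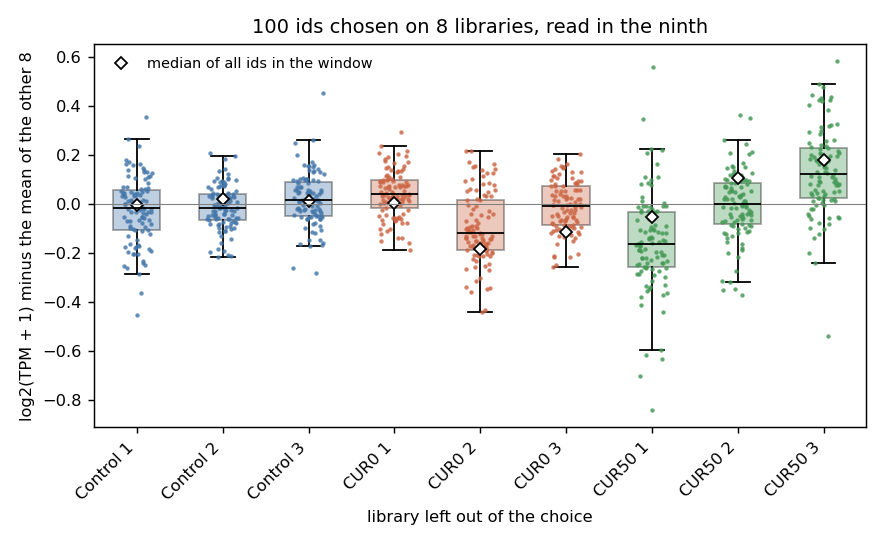
For each library the box gives the median and quartiles of 100 transcripts chosen on the other 8 libraries, as log2(TPM + 1) in the library left out minus the mean of the other 8, with whiskers to the farthest point within 1.5 box lengths and 1 point per transcript. The medians are farthest from 0 in CUR50 replicate 1 (-0.16), CUR50 replicate 3 (0.12) and CUR0 replicate 2 (-0.12), and diamonds are the median of all transcripts in the window.

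Averaging several candidates did not remove this shift. The mean of the 10 steadiest members had an SD of 0.023 over the 9 libraries and that of all 100 an SD of 0.020, against 0.033 for TRINITY_DN4921_c0_g1 alone. These SDs were taken on the libraries that made the choice. With the 10 transcripts chosen on the other 8 libraries, the mean shift in the library left out ranged from -0.17 in CUR50 replicate 1 to 0.087 in CUR50 replicate 3. With 100 it ranged from -0.16 to 0.13, in the same 2 libraries, and with 30 from -0.20 to 0.13. With only the steadiest transcript of the other 8 libraries it ranged from -0.14 in CUR50 replicate 1 to 0.058 in CUR0 replicate 3. The median absolute shift was 0.017 with 1 transcript, 0.094 with 3, 0.063 with 10, 0.039 with 30 and 0.024 with 100. It thus fell at each step from 3 to 100 transcripts, and only the value with 1 transcript, which rests on a single identifier per library, was lower. With 3 the mean shift ranged from -0.13 in CUR50 replicate 3 to 0.19 in Control replicate 1. The extremes therefore did not narrow steadily with the number averaged. Of the original members, 35 were in all 9 of the lists chosen on 8 libraries and 13 were in 8 of them, while 3 were in only 1. TRINITY_DN2292_c0_g1 and TRINITY_DN102_c0_g3, at the limit, and TRINITY_DN12435_c0_g5 were these 3, and of the 10 steadiest all but TRINITY_DN4396_c1_g1, in 8, were in all 9.

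A whole group was left out in the same way, so that the choice used 6 libraries. Only 37, 33 and 20 of the members were chosen again without Control, CUR0 or CUR50. The transcripts chosen on Control and CUR50 had a median shift of -0.16 in CUR0, at -0.054, -0.24 and -0.15 in replicates 1 to 3, and 24 of 100 stood higher in CUR0. The median of the window was -0.14. The transcripts chosen on Control and CUR0 had a median shift of 0.0052 in CUR50, at -0.13, 0.0083 and 0.10 in replicates 1 to 3, so the CUR50 libraries lay on both sides of 0. Those chosen on CUR0 and CUR50 had a median shift of -0.021 in Control.

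A median near 0 did not mean that the single transcripts stayed in place. Their median absolute shift in the group left out was 0.15 for Control, 0.18 for CUR0 and 0.19 for CUR50, against 0.20, 0.22 and 0.24 in the window. The values of the group left out did not overlap those of the 6 other libraries in 48, 50 and 51 of the 100, against 20.8%, 15.8% and 21.8% of the window. The 6 libraries span a narrow range in the chosen transcripts because of the choice, which makes a value outside that range more frequent.

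The list also depended on how the libraries were scaled to each other. Median-of-ratios scaling divides each library by a factor that centres the median transcript, and quantile normalization gives all libraries the same distribution of values. When the rule was applied after median-of-ratios scaling, 6 of the 100 members were chosen again, and after quantile normalization 13. With the 10 most abundant transcripts removed and the rest scaled to a common sum, 32 were chosen again. That scaling also raised all levels, so 7734 transcripts lay in the window in place of 6259. Of the 100 chosen there 83 lay in the deposited window, so the count reflects a changed window as well as the scaling. On the median-of-ratios scale the members had a median SD of 0.12 and a median rank of 841 of 6218, and the 100 transcripts chosen there had a median SD of 0.061 on that scale and of 0.13 on the deposited one. A choice by the mean SD of ratios to all transcripts of the window, which no scaling of a library changes, shared 11 with the members, 77 with the median-of-ratios list, 75 with the quantile list and 45 with the list without the 10 most abundant. Among other settings of the rule, the SD within groups, which leaves differences between groups out, kept 23 members. The window of 10 to 600 TPM kept 72, sums over clusters 75, the range in place of the SD 77, the coefficient of variation 98 and a pseudocount of 0.1 99.

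On the other scales the members were no longer level across groups. After median-of-ratios scaling the median difference of the members was 0.12 for CUR0 minus Control, with 97 of 100 higher in CUR0, and the window had a median of 0.037 and 55.3% higher. For CUR50 minus CUR0 it was -0.18, with all 100 lower in CUR50, while the window had a median of -0.0090 and 49.1% higher. The mean log2 scaling factor differed by 0.18 between CUR50 and CUR0, more than the 0.15 by which the highest member stood above CUR0 on the deposited scale, so this direction follows from the factors. For CUR0 minus Control the factor differed by -0.126, and the members ran from -0.14 with a median of 0.00055 on the deposited scale. Dividing by the factors thus also gives the median of 0.12 and puts nearly all members higher in CUR0. With quantile normalization the medians were 0.094 and -0.18, and with the 10 most abundant transcripts removed 0.054 and -0.10, where the window had medians of -0.034 and 0.074. By limma 2 members were called lower in CUR50 than in CUR0 after median-of-ratios scaling, where 3.44% of all tested genes were called lower. They were TRINITY_DN10549_c0_g1, with a difference of -0.35 ± 0.07 (SE) and an adjusted p of 0.0327, and TRINITY_DN12435_c0_g5, with -0.30 ± 0.07 and an adjusted p of 0.0478. After quantile normalization 7 members were called lower, these 2 among them, against 3.73% of all tested genes. None was called in the other comparisons on either scale. The data hold no spike-in or other measure of RNA amount, so which scale lies nearest to RNA per leaf was not tested.

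**Figure D5:**
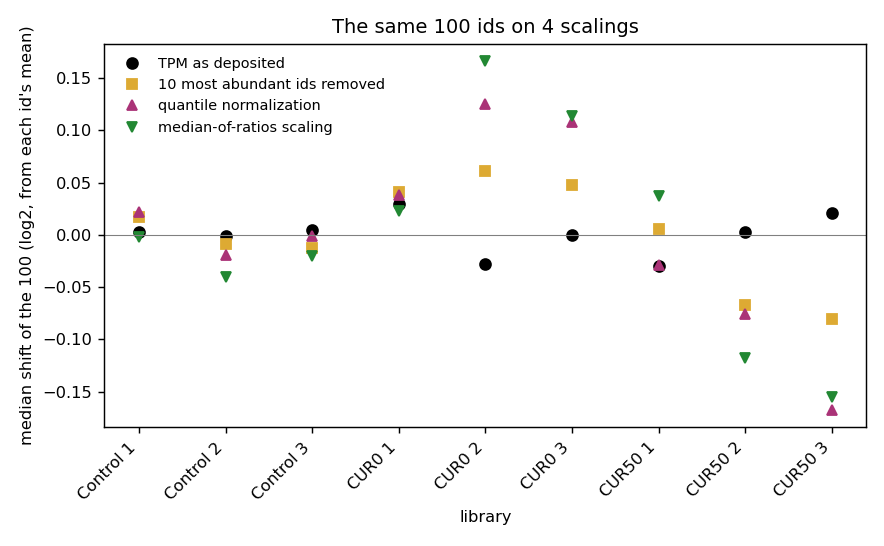
Points give the median shift of the same 100 members in each library, in log2 units from each member's own mean, on the deposited TPM and on 3 other scalings. On the deposited scale the libraries lie between -0.029 and 0.029, and after median-of-ratios scaling between -0.16 in CUR50 replicate 3 and 0.17 in CUR0 replicate 2.

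The 6 members that were also among the 100 on the median-of-ratios scale were in all 4 of the lists on other scalings and by ratios. They were singled out after their values were seen. TRINITY_DN1920_c0_g1 stood at 23.8, 24.1 and 22.1 TPM in Control, at 23.5, 21.0 and 22.0 TPM in CUR0 and at 21.9, 23.7 and 25.04 TPM in CUR50. Its SD was 0.078 on the deposited scale and 0.055 after median-of-ratios scaling, and it was in 8 of the 9 lists chosen on 8 libraries. TRINITY_DN3335_c0_g1 stood at 149.8, 146 and 157 TPM in Control, at 158, 137 and 146 TPM in CUR0 and at 144, 160.5 and 162 TPM in CUR50, with SDs of 0.080 and 0.060. In both, CUR0 replicate 2 was the lowest library and CUR50 replicate 3 the highest, as in the median transcript of the window.

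TRINITY_DN936_c0_g1 stood at 80.8 ± 3.2 TPM in Control, 75.8 ± 5.2 TPM in CUR0 and 81.9 ± 2.5 TPM in CUR50 (SD, n = 3). TRINITY_DN9042_c0_g2, described above as one of the highest members for CUR50 minus CUR0, had SDs of 0.081 and 0.066 on the 2 scales. TRINITY_DN26680_c0_g1 stood at 20.4 ± 0.53, 20.1 ± 0.26 and 22.1 ± 1.7 TPM in the 3 groups, and TRINITY_DN102_c0_g3 at 64.3 ± 0.37, 63.0 ± 4.1 and 66.7 ± 6.1 TPM (SD, n = 3). The ranks of the 6 ran from 57 to 100 on the deposited scale, so the steadier members there did not include any of them. TRINITY_DN4921_c0_g1, first on the deposited scale, ranked 1012 of 6218 after median-of-ratios scaling and 563 of 6259 by ratios.

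Scaling the whole table so that the median shift of the 100 members was 0 in every library moved the number of calls by less than 1.5 times. For CUR0 against Control 2890 of 31754 genes were called in place of 2622, with 999 higher and 1891 lower. For CUR50 against CUR0 it was 2215 in place of 1516, with 1406 higher and 809 lower, and for CUR50 against Control 4329 in place of 4007. With median-of-ratios scaling CUR50 against CUR0 gave 468 higher and 1092 lower. On the deposited scale 816 were higher and 700 lower. This count and its balance also moved with other settings: without the trend 253 were higher and 407 lower, and in a fit of only the 6 libraries compared 53 and 132. When 1 library was left out the count ran from 127, without CUR0 replicate 2, to 3436, without CUR50 replicate 1. More genes were called higher than lower without CUR0 replicate 1, CUR50 replicate 1 or CUR50 replicate 2, and more lower than higher when any of the other 6 libraries was left out. The count and balance of calls are therefore not a measure of the scaling alone.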

How the data were processed

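Leaf RNA was measured in 9 libraries of 3 groups. The authors deposited 1 table of TPM values, rounded to 2 decimals, with no read number, so no counting error can be attached. Per the submitters' processing notes, fastp, Bowtie2, RSEM and DESeq2 were used; the sources used here give no versions, assembly settings or filters. The identifiers have the form written by Trinity, which assembles transcripts without a genome, and none matched the 32005 genes of the reference table for assembly ASM1797944v1, so no names, positions or sequences are given. Columns were assigned by title; 2 Control columns lack a letter of it, and 0 were unused.

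Values were taken as log2(TPM + 1). Differences between groups were tested with limma 3.58.1 (R 4.3.3) with an intensity trend on the 31754 genes that reached 1 TPM in 3 or more libraries, all 9 libraries sharing 1 spread estimate (6 residual degrees of freedom), with Benjamini-Hochberg adjustment. The design had named a count test for counts and this test for TPM. The rule for members and the fit were run on simulated data to check the code. The simulated steady transcripts were set well apart from the rest, unlike these data, so that run says nothing of the list near its limit. Choice and summaries used Python 3.11.15. Members named by a rule are the 10 steadiest, those at the limit, those with the largest group differences, the 5 with the steadiest ratios, and the highest and lowest in level. The pair with the steadiest ratio and the members shared with the lists on other scalings and by ratios were named after the values were seen. The members and lists were chosen with earlier results of these data known. Alternatives were other scalings, pseudocounts, filters, measures of steadiness and windows, a replicate block, and leaving out each library or group.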

Additional observations from a re-analysis of the deposited data

How the results depend on the processing

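The median-of-ratios, quantile and 10-removed scales gave median shifts of the members of 0.12, 0.094 and 0.054 for CUR0 minus Control, -0.18, -0.18 and -0.10 for CUR50 minus CUR0 and -0.062, -0.094 and -0.050 for CUR50 minus Control. The cause was not tested beyond the scaling factors. With members chosen without CUR0 the shift was -0.16 for CUR0 minus Control and 0.16 for CUR50 minus CUR0, and chosen without Control it was 0.035 for CUR0 minus Control. Leaving out 1 library gave -0.018 to 0.024 for CUR50 minus CUR0 and -0.026 to 0.017 for CUR50 minus Control, and CUR50 replicate 1 gave the upper end of both. Members called in CUR50 against CUR0 were 2 on the median-of-ratios scale and 7 on the quantile scale, and 0 in the other 17 settings. The number of members chosen again was 6, 13 and 32 on the 3 scales, 11 by ratios and 23 by the SD within groups. It was 37, 33 and 20 without Control, CUR0 or CUR50, and 53 to 86 without 1 library, lowest without CUR50 replicate 1 (53) and CUR50 replicate 3 (59). With the replicate number as a block, CUR50 against CUR0 gave 231 calls in place of 1516, and no member was called in any comparison. Further settings for the calls over all genes were chosen after seeing the data. With only the 6 libraries compared CUR0 against Control gave 4841 calls, CUR50 against Control gave 2416 and CUR50 against CUR0 gave 185. The last comparison gave 507 with no filter, 2317 with a filter of 5 TPM and 660 without trend. Leaving out 1 library gave 1153 (CUR0 replicate 3) to 4117 (CUR50 replicate 1) for CUR0 against Control, 127 (CUR0 replicate 2) to 3436 (CUR50 replicate 1) for CUR50 against CUR0 and 1744 (Control replicate 3) to 4883 (CUR50 replicate 2) for CUR50 against Control. The cause was not tested. Same-numbered libraries correlated at -0.038 to 0.086 in their deviations from the group means, and the own number was the best match in 3 of 18 checks, so the numbers are not shown to pair the libraries. Unknown depth limits what can be said of members near 20 TPM.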

Other observations

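The window of 20 to 300 TPM left out other steady transcripts. Of the 257 identifiers with a mean above 300 TPM, 9 had an SD of log2(TPM + 1) at or below that of the last member, the smallest being 0.056. Of the 4143 with a mean of 10 to 20 TPM, 35 did. With a window of 10 to 600 TPM 72 of the 100 members were chosen again, and with TPM summed over the identifiers of a cluster the clusters of 75 members were among the 100 steadiest.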
